A study of Mus musculus with 24 samples.

Results

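The CpG-dense promoters of protein-coding genes in the mouse dentate gyrus were described from 270183 cytosines, 35.4% of the 762182 cytosines with a methylation percentage. A cytosine was taken when it lay within 1000 bases of a transcription start of a protein-coding gene (GENCODE M21, mm10) and when the genomic window of 50 bases to each side of it held 6 or more CpG dinucleotides. The rule itself uses no methylation value. Windows around starts that overlapped were joined, which gave 11610 promoter regions belonging to 12463 genes, and 4679 of the cytosines lay on the X chromosome. All but 1 of the cytosines were CpG cytosines in the reference genome.

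The study used reduced representation bisulfite sequencing (RRBS), in which DNA is cut at CpG-rich sites and bisulfite turns unmethylated cytosines into uracil, to ask how aging and environmental enrichment (ENR) change DNA methylation in the dentate gyrus, the entry station of the hippocampus. All 19 animals were female C57BL/6JRj mice, and the dentate gyrus was micro-dissected from each of them as whole tissue. Young STD mice were 1.5 months old and lived in standard cages (n = 5), Aged STD mice were 14 months old and lived in standard cages (n = 7), and Aged ENR mice were 14 months old and had lived in an enriched environment (n = 7). A young group with enrichment was not analyzed here. Libraries fell into a series numbered from 27 (3 Young STD mice and 4 mice of each aged group) and one numbered from 37 (2 Young STD mice and 3 of each aged group).

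CpG-dense promoters, mostly CpG islands, are the default start sites of housekeeping and developmental genes in mammals and are kept free of DNA methylation in nearly all tissues. The known exceptions are imprinted genes, where the maternal or the paternal copy is methylated, genes on the inactive X chromosome of females, and a set of germline genes that are methylated in somatic cells. Methylation of a CpG island promoter goes with silencing of its gene, so a tissue level near the middle of the scale is what a promoter methylated on a single allele in every cell would show, and a mixture of cell types can give the same level.

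Reference sequence (mm10, plus strand) is given below for 7 promoters that stand for the kinds of level described in the following paragraphs, with the measured CpGs in capitals. Cltc, which encodes the clathrin heavy chain, stands for housekeeping genes (chr11:86757791-86757871, from -306 to -226 relative to the start, 8 measured CpGs outside any protein-coding gene). Zrsr1, an intronless imprinted gene, shows an imprinted promoter (chr11:22972835-22973000, 830 to 995 bases downstream of the start, 13 CpGs in an exon), and Ribc2/Smc1b, whose Smc1b encodes a meiotic cohesin subunit, was the germline region with the most CpGs measured in every mouse (chr15:85132156-85132190, 78 to 112 bases downstream of the Ribc2 start, 3 exonic CpGs). Ndufa1/Rnf113a1 shows an X-linked promoter (chrX:37191548-37191747, 303 to 502 bases downstream of the Rnf113a1 start, 16 exonic CpGs). Oxsr1 (chr9:119323005-119323088, from -661 to -578 relative to the nearest start, 6 intronic CpGs) had, among regions with 5 or more CpGs measured in every mouse, the largest positive difference without overlap between the young and the aged standard-housed mice. Zar1 (chr5:72580387-72580446, 808 to 867 bases downstream, 4 exonic CpGs) and Rpl10l (chr12:66284333-66284410, from -9 to 68 relative to the start, 8 exonic CpGs) were added after their values were seen.
Cltc: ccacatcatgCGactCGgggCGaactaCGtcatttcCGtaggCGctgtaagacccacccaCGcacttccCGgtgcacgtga
Zrsr1: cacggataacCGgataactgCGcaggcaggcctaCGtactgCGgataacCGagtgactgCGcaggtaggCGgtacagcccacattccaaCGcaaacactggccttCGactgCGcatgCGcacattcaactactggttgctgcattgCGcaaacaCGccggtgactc
Ribc2/Smc1b: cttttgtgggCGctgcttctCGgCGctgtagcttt
Ndufa1/Rnf113a1: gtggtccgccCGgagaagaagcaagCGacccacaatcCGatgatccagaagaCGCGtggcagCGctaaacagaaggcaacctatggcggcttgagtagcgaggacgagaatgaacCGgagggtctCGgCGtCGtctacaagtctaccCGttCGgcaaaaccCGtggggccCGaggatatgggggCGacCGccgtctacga
Oxsr1: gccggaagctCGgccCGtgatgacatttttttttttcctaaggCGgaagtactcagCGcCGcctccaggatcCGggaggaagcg
Zar1: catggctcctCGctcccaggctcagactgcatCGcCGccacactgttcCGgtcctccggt
Rpl10l: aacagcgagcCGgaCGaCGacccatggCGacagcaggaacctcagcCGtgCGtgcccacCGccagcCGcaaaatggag

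In young mice these stretches differed far more in methylation than in CpG number. The Cltc stretch holds 9 CpGs and its measured CpGs averaged 1.26% in Young STD mice, whereas the Rpl10l stretch also holds 9 CpGs and averaged 98.6%. The 13 measured CpGs of Zrsr1 ranged from 36.1% to 86.6%, and the 16 of Ndufa1/Rnf113a1 from 3.71% to 51.9%. In Zrsr1 the 7 cytosines read on the plus strand had 69.5% to 86.6% and the 6 read on the minus strand 36.1% to 42.3%.

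Fewer of these cytosines than of all cytosines were measured in every mouse. A mouse had a value for 47.8% to 94.4% of the cytosines, and 18729 of them (6.93%) were measured in every mouse, against 9.06% of all cytosines. Between 88.1% and 94.1% of the values in a mouse were exactly 0. Read numbers were not part of the values used, so depth is unknown. Where a CpG was measured on both strands and the other mice had between 20% and 80%, the SD of the difference between strands within a mouse was 26.1 to 42.8 points, against 5.85 to 9.76 points at CpGs under 5%. A single intermediate value is therefore imprecise, and region means were used for most comparisons.

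The libraries also differed in which part of the genome they covered. The composition index, the mean Young STD methylation of the cytosines that have a value in a given mouse (the mouse itself left out of the young mean), was 30.6% to 32.3% in Young STD mice and 23.4% to 36.2% in Aged ENR mice. The Aged STD mice numbered 3, 4 and 6 had 19.6%, 20.8% and 19.5%, and the other 4 had 28.7% to 38.0%. In mice 3, 4 and 6, 56.5%, 51.5% and 35.6% of the intermediate values were exactly 0 or 100, against 12.8% to 34.9% in the other 4 Aged STD mice, 7.42% to 31.8% in Young STD mice and 15% to 48.2% in Aged ENR mice, so this share did not set mouse 6 apart. Class means, counts of tests and some regions are also given without these 3 mice, an alternative chosen after seeing the data. Of 57 regions examined mouse by mouse, the difference between Aged STD and Young STD means changed sign in 16 without them and moved by over 1.5 times in 17 more, and the difference between Aged ENR and Aged STD means changed sign in 15 and moved as much in 20 more. Of 35 such regions averaged over CpGs measured in every mouse, the use of all their CpGs turned the sign in 10, 5 and 10 in the 3 comparisons (Aged STD minus Young STD, Aged ENR minus Aged STD and Aged ENR minus Young STD). Single regions are therefore described by their values. In whole tissue, fewer cells carrying a methylated promoter and less methylation in each cell cannot be told apart.

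CpG-dense promoters were almost free of methylation in the young dentate gyrus. The mean over the CpGs measured in every mouse was 2.32% ± 0.139 (SD, n = 5) in Young STD mice. Promoter CpGs in windows with fewer CpGs averaged 6.22% ± 0.571. All CpGs outside the CpG-dense promoters, these included, averaged 27.3% ± 1.42. CpGs with as many neighbors outside these promoters averaged 20.3% ± 0.965. Over all 270183 cytosines, 94.9% had a Young STD mean under 10%, 4.88% lay between 10% and 80%, and 661 were at 80% or more. On the X chromosome the share under 10% was 19.3%.

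Methylation was lower the more CpGs the window held, up to 13 CpGs. In Young STD mice, autosomal promoter CpGs averaged 24.9% with 1 CpG, 12.2% with 3, 4.74% with 5 (just outside the limit), 3.13% with 6 (just inside), 1.76% with 8 and 1.05% with 15 or more. Along the promoter the lowest levels lay near the start, with 1.31% in the last 100 bases before it, 1.29% in the 100 bases upstream of those and 1.30% in the first 100 bases after it. Levels were 4.18% in the farthest 100 bases upstream and 3.07% in the farthest 100 downstream. At the edge of the promoter, the dense autosomal CpGs in the last 100 bases inside the limit of 1000 bases averaged 3.32%, and those in the first 100 bases outside it averaged 2.94%.

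**Figure D1:**
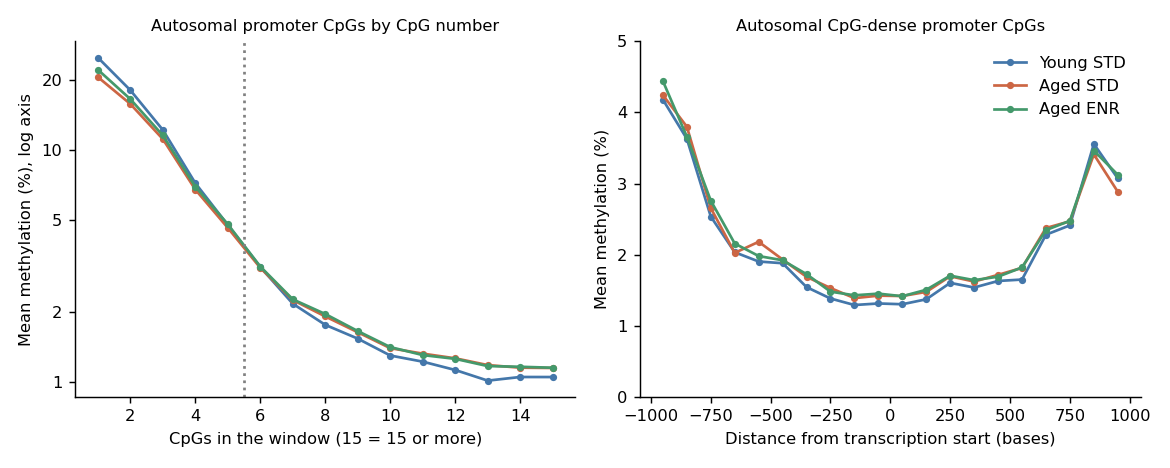
Left, mean methylation of autosomal promoter CpGs (percent, log axis) against the number of CpGs in the window, with a dotted line at the limit for CpG-dense promoters. Right, mean methylation of autosomal CpG-dense promoter CpGs in bins of 100 bases against the distance from the start. Lines stand for group means. Levels go from 24.9% to 1.05% with CpG number in Young STD mice, and the Young STD line lies above the Aged STD line up to 6 CpGs and below it from 7 on.

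The promoter regions were sorted into classes of level by fixed limits at 10% and 80%. Of 10339 regions with 5 or more of the cytosines, 9877 had a Young STD mean under 10% (low), 419 had 10% to 80% (intermediate) and 43 had 80% or more (high). Intermediate regions were mostly X-linked: 238 of the 419 (56.8%) lay on the X chromosome, and these were 92.6% of the 257 X-linked regions. Of 10082 autosomal regions, 97.9% were low.

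**Figure D2:**
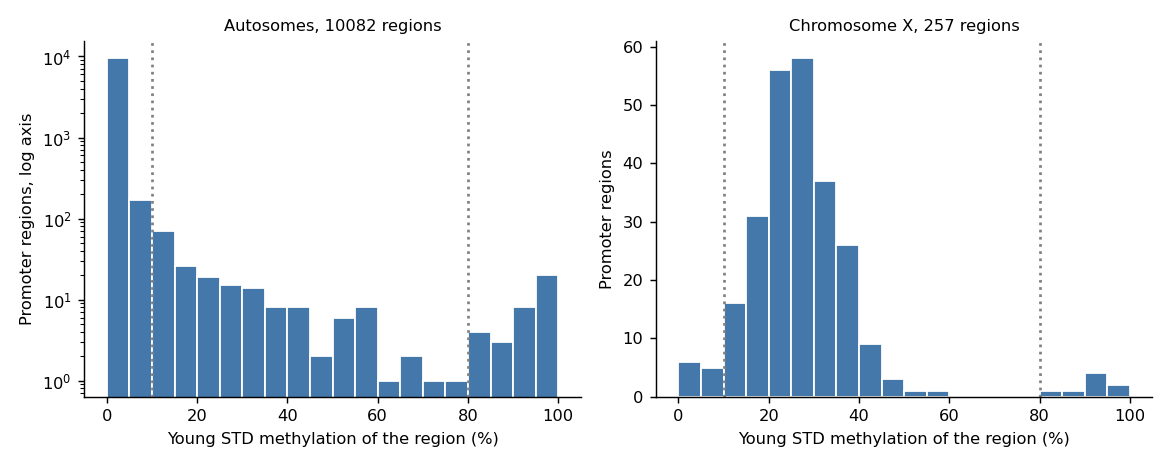
Number of promoter regions (log axis for autosomes) by Young STD methylation in bins of 5 percent, with dotted lines at 10% and 80%. Autosomal regions pile up under 10% with a small group above 80%, while X-linked regions center on a median of 26.5%.

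Features that the classes shared beyond their level were read from the annotation and from promoter sequences of RefSeq (GRCm38.p6), which span 250 bases before to 50 bases after a start. In 37.1% of the 35 autosomal high regions the annotated transcripts starting there consist of 1 exon, compared with 2.11% of the 9866 autosomal low regions and 10.5% of the 181 autosomal intermediate regions. High regions were also less dense, with a median of 7.33 CpGs in the window against 9.84 in low regions. Promoter sequences were matched by symbol for 8697 of 11182 genes. The letters GGGCGG (GC box, the site of Sp1-type factors, either strand) occurred in 69.9% of the promoters of autosomal low regions, 50% of autosomal intermediate, 69.0% of X-linked intermediate and 5 of 23 (21.7%) of autosomal high regions, against 35.9% of all RefSeq promoters. TATAAA occurred in 5.98% of autosomal low promoters and 14.2% of all, and CCGGAAG, a core ETS-factor motif, in 19.0% and 9.12%. The 23 autosomal high promoters had TATAAA in 4.35% and CCGGAAG in 21.7%. The median number of CpGs in these sequences was 23 in autosomal low, 19 in X-linked intermediate and 12 in autosomal high promoters. Over all RefSeq promoters it was 7. The regions were chosen for windows with 6 or more CpGs. GGGCGG and CCGGAAG contain a CpG and TATAAA does not, so differences from all RefSeq promoters cannot be told apart from CpG number.

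Housekeeping promoters were nearly unmethylated. All 17 regions of the housekeeping list were low, with a median of 0.796% in Young STD, 1.02% in Aged STD and 1.04% in Aged ENR mice. The 8 CpGs of Cltc measured in every mouse gave 0.584%, 1.32%, 1.08%, 1.81% and 1.53% in the 5 Young STD mice, 0.488% to 2.78% (median 1.30%) in Aged STD mice and 0% to 4.41% (median 0.785%) in Aged ENR mice. Gapdh, a glycolytic enzyme, had medians of 0% in each group. The ranges of the groups overlapped at both genes.

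Promoters of neuronal genes were also low. Of 19 regions of the neuronal list 18 were low. Prox1, the transcription factor that specifies granule cells of the dentate gyrus, had 0.750% ± 1.17 (SD, n = 5) in Young STD, 0.890% ± 1.15 (n = 7) in Aged STD and 0.882% ± 0.954 (n = 7) in Aged ENR mice. Over only the CpGs measured in every mouse, Tubb3, a neuronal tubulin, had a median of 0% in all groups, as did C1ql2, a mossy fiber synapse protein. The intermediate exception was the activity-induced transcription factor Npas4 with 12.9% ± 9.85 in 4 Young STD mice, 9.80% ± 10.2 in 6 Aged STD mice and 8.27% ± 6.58 in 4 Aged ENR mice.

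Promoters of genes for other cell types of the tissue were also mostly low, 10 of 13. Aldh1l1, an astrocyte enzyme, had 36.0% ± 24.9 (SD, n = 5), 30.3% ± 14.8 (n = 7) and 34.8% ± 15.7 (n = 7) in the 3 groups, named in the order young, aged standard and aged enriched. Sox10, the oligodendrocyte lineage factor, had 28.1% ± 19.2 (n = 5), 18.8% ± 22.6 (n = 7) and 18.5% ± 11.0 (n = 6). The third intermediate region, Cspg4/Odf3l1, with the proteoglycan gene of oligodendrocyte precursors, had higher means in aged mice with 12.4% (8.40% to 19.8%, n = 4), 21.3% (7.26% to 50.1%, n = 7) and 28.7% (9.01% to 57.9%, n = 7), and these ranges overlapped. Among the low regions, the growth factor receptor gene Pdgfra had 0.389% ± 0.380 (n = 5), 2.03% ± 1.62 (n = 6) and 1.23% ± 1.99 (n = 7). Gja1, an astrocyte gap junction gene, had 0% in 3 Young STD and 3 Aged ENR mice and 1.82%, 75% and 15.1% in the 3 Aged STD mice with a value. The whole list, 24 CpGs measured in every mouse, averaged 4.29% (2.23% to 7.65% over mice), 5.10% (0.649% to 10.2%) and 4.28% (1.82% to 6.96%), so its groups overlapped. A part of changing cell composition in the results that follow was not tested.

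Developmental transcription factors, the classical targets of Polycomb repression, were unmethylated although these genes are mostly silent in the adult brain. Of 49 regions 48 were low, with medians over all 49 of 1.66% in Young STD, 2.14% in Aged STD and 2.28% in Aged ENR mice. En1, a midbrain and limb factor with 19 CpGs measured in every mouse, had 2.55% ± 1.45, 2.57% ± 1.73 and 2.85% ± 3.61. Foxd3, a neural crest factor, had 2.20% ± 2.12, 1.82% ± 1.60 and 2.08% ± 1.67. Hand1, a heart and trophoblast factor, was the intermediate region with 21.3% ± 7.33, 14.3% ± 9.64 and 17.4% ± 12.5, and Sox17, the endoderm and endothelial factor, had 8.32% ± 6.29, 3.63% ± 2.74 and 4.34% ± 4.04.

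The enzymes that write and remove methylation had unmethylated promoters in every group. All 15 regions of this list were low, with medians of 0.999%, 1.00% and 1.09%. The 42 CpGs of the list measured in every mouse averaged 1.11% ± 0.299 in Young STD, 1.04% ± 0.533 in Aged STD and 1.90% ± 1.26 in Aged ENR mice. These groups overlapped. Dnmt1, the maintenance methyltransferase, had 0.150% ± 0.336 in Young STD, 0.823% ± 1.08 in Aged STD and 2.32% ± 2.62 in Aged ENR mice over 7 of its 26 CpGs. Over all 26 its Aged STD and Aged ENR means differed from the Young STD mean by 0.231 and 0.446 points. The de novo methyltransferase Dnmt3a had 0.576% ± 1.2, 1.28% ± 1.29 and 1.08% ± 0.782. Tet3, an oxygenase that starts demethylation, had 1.23% ± 1.52, 1.07% ± 1.32 and 0.758% ± 1.02, and Gadd45b, an activity-induced gene linked to demethylation, had 0.761% ± 0.477, 0.387% ± 0.313 and 0.820% ± 0.825.

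Germline genes stood at both ends of the scale. Among 11 regions of the list with 5 or more of the cytosines, 5 were low, 2 intermediate and 4 high. D1Pas1, an intronless testis helicase, had 94.8% ± 5.12 in Young STD, 88.1% ± 14.8 in Aged STD and 95.6% ± 3.09 in Aged ENR mice. Tuba3b, a testis tubulin, had 97.5% ± 3.06, 96.8% ± 3.90 and 98.3% ± 1.79, and Sohlh2, a germ cell transcription factor, had 96.0% ± 5.69 (n = 5), 100% in all 4 Aged STD mice with a value and 99.7% ± 0.743 (n = 6). Rpl10l, an intronless testis copy of a ribosomal protein gene, had 97.5%, 99%, 97.8% and 100% in 4 Young STD mice, 100% in all 5 Aged STD mice with a value and 87.5% to 100% in 7 Aged ENR mice. Dazl, the RNA-binding protein of germ cells, was intermediate with 35.8% ± 11.9, 27.5% ± 20.5 and 36.6% ± 18, whereas Ribc2/Smc1b was low with 2.32% ± 1.74, 0.869% ± 1.44 and 1.24% ± 1.73. Without Aged STD mice 3, 4 and 6 the Aged STD means of Dazl and D1Pas1 were 42.9% and 96.7%.

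As a class, highly methylated promoters overlapped between young and aged mice, and single regions varied more. The mean over the 35 autosomal high regions was 93.2% ± 1.30 (SD, n = 5) in Young STD, 91.5% ± 4.14 (n = 7) in Aged STD and 93.4% ± 1.82 (n = 7) in Aged ENR mice, and the lowest Aged STD mouse had 83.9%. Among all 43 high regions, group means over the CpGs with a value were 92.8%, 72.2% and 85.5% at Sfi1 and 81.1%, 63.7% and 75.9% at the X-linked Ldoc1. Gpatch2 had 87.1%, 90.8% and 74.6%, and these 3 regions were chosen after their values were seen. Among high regions with at least 5 CpGs measured in every mouse, 4933415F23Rik had 98.0% ± 2.54, 99.4% ± 0.786 and 96.1% ± 3.98, and the annotated promoter of Nop10, which encodes a small nucleolar ribonucleoprotein, had 95.7% ± 3.46, 96.2% ± 3.70 and 92.3% ± 4.98. The next by Young STD level among autosomal regions with as many such CpGs were intermediate. Mymx, a muscle fusion peptide, had 61.3% ± 15, 63.2% ± 16.7 and 62.8% ± 20.4. The 30 such CpGs of the 3110070M22Rik/Tmem267 region gave 67.4% ± 9.89, 60.3% ± 25.4 and 69.3% ± 17.5, with 17.7% in Aged STD mouse 3 and 38.8% as the lowest value of any other mouse. Without Aged STD mice 3, 4 and 6 the Aged STD mean was 79.3%.

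The first comparison, Aged STD against Young STD mice, asks what aging does at these promoters. Over all CpGs measured in every mouse, CpG-dense promoters had 2.23% ± 0.270 (SD, n = 7) in Aged STD and 2.32% ± 0.139 (n = 5) in Young STD mice. The difference of -0.0888 points (-0.0470 in library series 27 and -0.161 in series 37) lay within the spread, with 2 of 7 Aged STD mice below and 1 above all young mice. It turned to 0.0873 points without Aged STD mice 3, 4 and 6 and was -0.0261 points without mouse 3 alone. The 18326 of these CpGs on autosomes had 1.83% ± 0.0878 and 1.75% ± 0.0486, a difference of 0.0795 points (0.128 in series 27 and 0.00917 in series 37), and 4 of 7 Aged STD mice lay above all young mice. Without mice 3, 4 and 6 the autosomal difference was 0.126 points. When autosomal regions were restricted to low levels, every Aged STD mouse was slightly higher than every young mouse. For 9882 autosomal regions whose mean over the 3 groups was under 10%, counting each region once, the mean was 1.29%, 1.26%, 1.24%, 1.28% and 1.24% in the 5 Young STD mice and 1.32% to 1.49% (median 1.37%) in the 7 Aged STD mice. The groups did not overlap, the difference was 0.133 points (10.5% of the young level), and it was 0.132 points in library series 27 and 0.133 in series 37. Without Aged STD mice 3, 4 and 6 it was 0.144 points. No p-value is given for a mean over chosen promoters.

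The shift was spread thinly over many promoters. Of the 9882 regions 5679 (57.5%) were higher in Aged STD than in Young STD mice and 4133 (41.8%) were lower, with a median difference of 0.132 points and 5th and 95th percentiles of -1.56 and 1.81 points. A difference over 5 points was found in 66 regions. All 7 Aged STD mice also lay above all Young STD mice when the low class was set by the Aged STD level (0.112 points) or the Aged ENR level (0.125 points), and when only the 17785 CpGs measured in every mouse were averaged (0.146 points, but 0.193 in series 27 and 0.0803 in series 37). When each value was taken as the deviation from the mean of its CpG, which takes out level differences between the CpGs covered, the difference was 0.127 points. Other 1-kb windows of autosomes under 10%, 12107 windows of CpGs outside this set, differed by -0.364 points, with overlapping groups.

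The direction of the group difference turned with CpG number. Autosomal promoter CpGs in windows with 1 CpG averaged 24.9% in Young STD and 20.6% in Aged STD mice, and those with 5 averaged 4.74% and 4.61%. With 6 CpGs the means were 3.13% and 3.10%, with 7 they were 2.17% and 2.25%, with 10 they were 1.30% and 1.40%, and with 13 they were 1.01% and 1.18%. These are means over all CpGs with a value, and this turn was not tested.

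**Figure D3:**
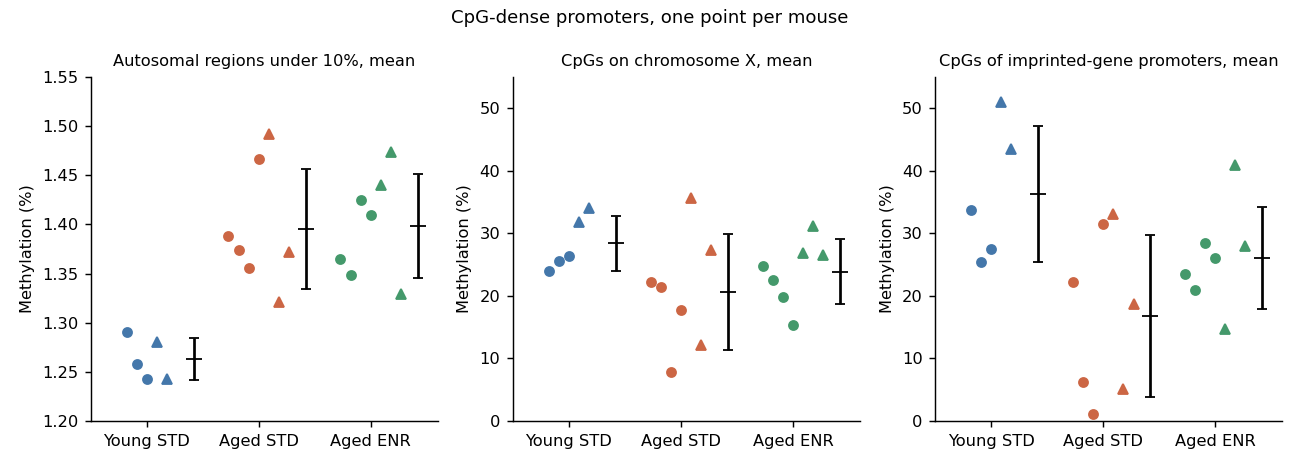
Mean methylation (percent) of 9882 autosomal regions under 10% (left, axis from 1.2%), of 403 X-linked CpGs (middle) and of 43 CpGs of imprinted-gene promoters (right), the last 2 measured in every mouse. Points are mice, circles are library series 27 and triangles series 37, bars are group means ± SD. All 14 aged mice lie above all Young STD mice on the left, while aged mice spread downward in the middle and on the right.

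Intermediate promoters on autosomes had a lower mean in Aged STD mice. The 181 regions averaged 25% ± 3.40 (SD, n = 5) in Young STD and 20.1% ± 5.48 (n = 7) in Aged STD mice, 126 of them were lower, and 6 of 7 Aged STD mice were under the lowest young mouse. They were chosen by their Young STD level, so this is a description. Without Aged STD mice 3, 4 and 6 the difference went from -4.89 to -1.58 points. The Aged ENR mean was 22% ± 3.27 (n = 7), with 112 regions lower than in Young STD mice.

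X-linked promoters were lower in most but not all Aged STD mice. The 403 X-linked CpGs measured in every mouse averaged 24.0%, 25.6%, 26.4%, 31.9% and 34.1% in the 5 Young STD mice and 7.85% to 35.7% (median 21.5%) in Aged STD mice. Below the lowest young mouse were 5 of the 7 Aged STD mice, and 1 was above the highest. The difference was -7.74 points, with -8.00 points in series 27 and -7.90 in series 37. The 3 mice with the low composition index had 7.85%, 17.7% and 12.1%, and without them the difference was -1.66 points.

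The X-linked regions followed their CpGs. Medians over the 257 regions were 26.5% in Young STD and 19.0% in Aged STD mice, and 214 regions were lower in Aged STD mice. Without the 3 mice the Aged STD median was 25.8% and 144 of the 257 were lower. The 4 promoters of genes known to escape X inactivation were low in all groups. Kdm6a, a histone demethylase, had 0.165% ± 0.235 in Young STD and 0.861% ± 0.998 in Aged STD mice, and Eif2s3x, a translation initiation factor subunit, had 0.780% ± 0.853 and 1.36% ± 1.17. Over all CpGs the differences were 0.117 points at Kdm6a and -0.961 points at Eif2s3x, and without mice 3, 4 and 6 that at Kdm6a was -0.0494 points. Kdm5c, another histone demethylase, had 4.34% ± 6.95 and 1.95% ± 1.01, with a single Young STD mouse at 16.8%, and the RNA helicase Ddx3x had 2.07% ± 4.13 (n = 4) and 1.05% ± 2.04 (n = 5).

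The 4 regions on the X chromosome with the most CpGs measured in every mouse differed among themselves. Ndufa1/Rnf113a1, which holds a respiratory chain subunit gene and a splicing factor gene, had 12.8%, 43.1%, 22.6%, 27.5% and 58.2% in Young STD mice and 2.49% to 38.8% (median 32.2%) in Aged STD mice. These groups overlapped, and the difference of means went from -5.56 to 0.255 points without mice 3, 4 and 6. Nhsl2 had 42.1%, 26.0%, 50.5%, 67.0% and 35.0% in Young STD mice and 2.53% to 48.6% (median 16.6%) in Aged STD mice, a difference of -23.4 points (SE 9.04) with an adjusted p of 0.727 by limma. Over all 36 CpGs of the region the difference was -15.5 points, and over the 16 CpGs without mice 3, 4 and 6 it was -13.2 points. The other 2 of these 4 regions were low, Pbdc1 with 3.47% ± 4.12 and 3.59% ± 4.72, and Tmem29 with 2.55% ± 3.51 and 1.56% ± 1.28. Esx1, a placental homeobox gene, had 49.1% ± 30.8 and 16.7% ± 13.8, and Tspan6 had 41.1% ± 31.5 and 33.7% ± 22.4. Without mice 3, 4 and 6 the Tspan6 difference went from -7.45 to 2.05 points.

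CpGs of imprinted promoters measured in every mouse were also lower in most Aged STD mice. Of 24 regions of the list 14 were intermediate, and the 43 CpGs measured in every mouse averaged 33.7%, 25.4%, 27.6%, 51.1% and 43.5% in Young STD mice and 1.12% to 33.1% (median 18.7%) in Aged STD mice. Again 5 of the 7 were below the lowest young mouse. The difference was -19.4 points, -13.7 in series 27 and -28.4 in series 37, and without the 3 mice it was -16.2 points. Of the 43 CpGs, 13 lay in Zrsr1 and 7 in Nnat. By region, the 6 imprinted regions with 3 or more such CpGs had a median difference of -24.4 points, 5 lower and 1 higher. Over all CpGs, as deviations from the mean of each CpG, 25 regions had a median of -1.61 points, 17 lower and 8 higher. Zrsr1 had 71.3%, 41.0%, 50.9%, 68.5% and 68.1% in Young STD mice and 0% to 54.8% (median 34.5%) in Aged STD mice, a difference of -34.0 points (SE 10.5, adjusted p 0.593 by limma) over 13 of its 28 CpGs and of -25.6 points over all of them. The 0% belonged to Aged STD mouse 2, whose composition index was 28.7%. The strands of Zrsr1 differed. Group means of its plus-strand cytosines were 69.5% to 86.6% in Young STD, 23.8% to 26.5% in Aged STD and 35.9% to 39.5% in Aged ENR mice. Those of its minus-strand cytosines were 36.1% to 42.3%, 25.7% to 29.3% and 44.9% to 52.9%.

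Other imprinted promoters varied widely between mice. Nnat, a paternally expressed brain gene, had 11.8%, 21.2%, 3.68%, 77.5% and 66.3% in Young STD mice and 0% to 25.6% (median 7.24%) in Aged STD mice. The Young STD values above 60% were both from library series 37. These are means over 7 of its 25 CpGs, where the difference was -26.7 points, against -5.82 points over all 25. The Gnas region with 5 CpGs measured in every mouse, which belongs to a complex locus for a stimulatory G protein, had 38.5% ± 10.3 in Young STD and 32.1% ± 33.9 in Aged STD mice, where mouse 4 reached 100%. The difference was -6.39 points over these 5 CpGs and -15.9 points over all 36, and without mice 3, 4 and 6 it was -9.63 points over the 5. The second Gnas region had 54.4% ± 26.5 (n = 3) and 50.6% ± 36.2 (n = 5), and Snrpn/Snurf had 45.2% ± 12.2 and 26.5% ± 25.6. Without mice 3, 4 and 6 the differences of means at these 2 regions went from -3.77 to 19.0 points and from -18.7 to -0.359 points. Rasgrf1, a signaling gene, was low with 1.35% ± 0.709 and 1.50% ± 1.88.

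Tested one by one, no promoter region passed the test for aging in standard cages. Of 2488 regions with 3 or more CpGs measured in every mouse, 0 passed an adjusted p of 0.05 in limma (0% of all 9653 regions and windows of the genome). An unadjusted p under 0.05 was found for 83 promoter regions, 59 lower and 24 higher in Aged STD mice, which is 3.34% against 6.46% of all regions and windows. The smallest adjusted p among promoter regions was 0.437. The majority direction did not hold throughout. Without the 3 mice of low composition index 69 regions were higher and 14 lower among 83 of 2465 with an unadjusted p under 0.05, and with this index in the model 110 were higher and 25 lower. Without Aged STD mouse 2 the numbers were 46 and 45, and with the replicate block 33 and 29. Of single CpGs, 0 of 116622 passed an adjusted p of 0.05 with a difference over 25 points (0% of 527601), 1607 had an unadjusted p under 0.05 (4.42% of all CpGs did), 1246 were lower by over 25 points (7.19% of all) and 549 higher (2.17% of all). This direction turned too: the CpGs with an unadjusted p under 0.05 were 171 higher and 1436 lower, and without the 3 mice 1239 higher and 274 lower. Of the 1795 CpGs past 25 points, 40% were X-linked, compared with 3.89% of all promoter CpGs tested. Of the 1795, 1426 had a Young STD mean of 10% or more. Among all promoter cytosines the Young STD mean was under 10% for 96.2% on autosomes and 19.3% on the X chromosome. A CpG under 25% cannot fall by 25 points, so such counts depend on the starting level, here and in the later comparisons.

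No region at the extremes of this comparison passed the test. Zar1, an oocyte gene needed for the start of embryonic development, had 1.52%, 6.53%, 3.79%, 0% and 8.97% in Young STD mice and 14.4% to 22.1% (median 15.9%) in Aged STD mice over 4 CpGs. The groups did not overlap, and the difference of 12.7 points (SE 3.24) had the smallest adjusted p, 0.437 by limma. Over all 28 CpGs of the region, the difference was 4.38 points. Among 1773 regions with 5 or more CpGs measured in every mouse, 2 were higher and 1 was lower without overlap, against 0.152% and 0.303% of all 3956 such regions and windows. Oxsr1, a stress-response kinase, had 0% to 0.758% in Young STD and 0.833% to 4.99% in Aged STD mice, a difference of 2.16 points (SE 0.770, adjusted p 0.698 by limma) over 8 of its 56 CpGs and of 0.492 points over all 56. Bms1, a ribosome assembly factor, had 0.553% ± 0.445 in Young STD and 2.10% ± 1.54 in Aged STD mice. When all CpGs with a value were used, the region with the smallest adjusted p was in Bsg, the gene of the membrane protein basigin, named after its values were seen. Its 9 CpGs, none measured in every mouse, gave 35.1%, 10.8%, 14.1%, 26.8% and 39.7% in Young STD mice, 1.91% in 1 Aged STD mouse and 0% in the other 6. This difference of -24.3 points (SE 4.59, adjusted p 0.320 by limma) was without overlap.

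**Figure D4:**
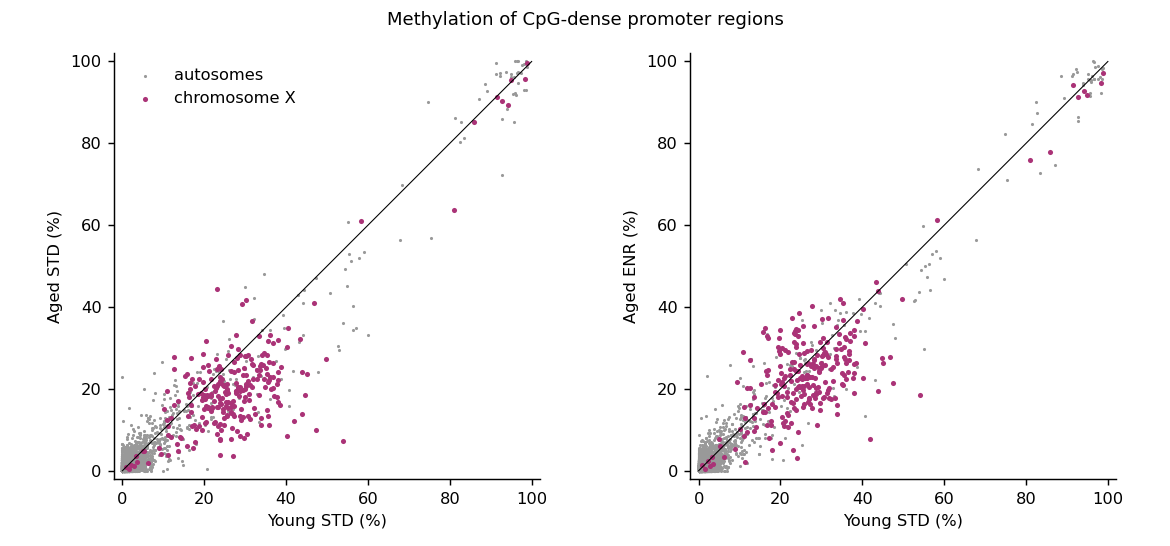
Methylation (percent) of 10339 promoter regions in Young STD mice against Aged STD mice (left) and Aged ENR mice (right), as group means. Gray points are autosomal, purple points X-linked regions, and the line marks equal values. X-linked regions lie mostly under the line, 214 of 257 on the left and 176 of 257 on the right.

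The second comparison, Aged ENR against the same Aged STD mice as before, asks whether a life in an enriched environment changed these promoters at the same age. Over all CpGs measured in every mouse the difference was 0.116 points, and on autosomes 0.0470 points, with 1 of 7 Aged ENR mice above all Aged STD mice. Without Aged STD mice 3, 4 and 6 these were -0.0605 and 0.00065 points, and without Aged STD mouse 6 or mouse 3 alone the autosomal difference was 0.0269 or 0.0298 points. Unmethylated autosomal promoters differed by less than the spread between mice. The mean of the 9882 regions was 1.40% ± 0.0528 (SD, n = 7) in Aged ENR and 1.40% ± 0.0614 (n = 7) in Aged STD mice, a difference of 0.00325 points, and 4877 regions were higher and 4939 lower in Aged ENR mice. X-linked CpGs averaged 15.4% to 31.1% (median 24.8%) in Aged ENR mice, inside the Aged STD range of 7.85% to 35.7%, with a difference of 3.24 points that was 3.35 in series 27 and 3.09 in series 37. Without Aged STD mice 3, 4 and 6 it turned to -2.84 points. Imprinted CpGs averaged 14.6% to 41.0% (median 26.0%) in Aged ENR mice, 9.26 points above Aged STD mice, and 6.05 points above them without the 3 mice. By region, the 6 imprinted regions with 3 or more such CpGs had a median difference of 1.21 points, 3 higher and 3 lower. Over all CpGs, as deviations from the mean of each CpG, 25 regions had a median of 0.750 points, 14 higher and 11 lower.

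No single region passed the test between the aged groups. Of 2497 regions 0 were called by limma (0% of all 9669), and 62 had an unadjusted p under 0.05, 33 higher and 29 lower, against 3.6% of all. The smallest adjusted p among promoter regions was 0.952. Without the 3 low-index mice the split among 66 such regions was 10 higher and 56 lower. Of 1778 regions with 5 or more CpGs measured in every mouse, 0 separated the groups, against 0.0252% of all 3961 such regions and windows higher and 0% lower. Over all CpGs with a value, regions of Nr6a1, an orphan nuclear receptor gene, and Dhps, an enzyme of hypusine synthesis, did separate them, both named after their values were seen. Nr6a1 had 0.291% to 2.05% in Aged STD and 2.22% to 4.84% in Aged ENR mice over 16 CpGs, a difference of 2.39 points (SE 0.621, adjusted p 0.950 by limma). Dhps had 0% in 6 Aged STD mice and 1.89% to 6.41% in the 5 Aged ENR mice with a value, over 3 CpGs. Other regions among the smallest p-values were lower in Aged ENR mice, also named after their values were seen. Abl1, a tyrosine kinase gene, had 0% in all 7 Aged ENR mice and 0% to 7.62% in Aged STD mice, a difference of -3.16 points (SE 0.963, adjusted p 0.952 by limma). The helicase gene Dhx15 had 0% to 1.28% and 0.816% to 8.80%, a difference of -4.26 points over 5 of its 25 CpGs and -1.97 points over all. The histone region Hist1h2bh/Hist1h3f had 0.508% ± 1.03 in Aged ENR mice and 3.73% ± 1.87 in 6 Aged STD mice. The groups overlapped at these 3 regions. Nnat had 12.4% to 94.3% (median 26.2%) in Aged ENR mice, 31.3 points (SE 11.9) above Aged STD mice with an adjusted p of 0.952 by limma, and the Aged ENR mice at 85.7% and 94.3% came from different library series. Over all 25 CpGs its difference was 15.8 points. Zrsr1 had 26.9% to 59.4% (median 39.2%), 18 points (SE 9.26) above Aged STD mice. The Gnas region with 5 CpGs measured in every mouse had 0% to 42.8% in Aged ENR mice, with 3 mice at 0%, and differed by -10.2 points over these CpGs and -0.356 points over all 36. The difference of means was -1.56 points at the second Gnas region (-24.4 without Aged STD mice 3, 4 and 6) and -0.0507 points at Rasgrf1 (-0.940 without them). Of single CpGs, 0 of 122762 were called (0% of 530262), 977 had an unadjusted p under 0.05 (2.25% of all), 521 were lower by over 25 points (2.62% of all) and 850 higher (4.53% of all). The CpGs with an unadjusted p under 0.05 were 591 higher and 386 lower. They turned to 2449 lower of 2551 without Aged STD mice 3, 4 and 6, and the lower ones were also more numerous when any 1 Aged STD mouse was left out (323 higher and 707 lower without mouse 3). When any 1 Aged ENR mouse was left out, the higher ones were more numerous (1026 higher and 226 lower without mouse 4).

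The third comparison sets Aged ENR against the same Young STD mice as the first, so its values are not independent of the aging comparison. Over all CpGs measured in every mouse the difference was 0.0268 points, but -0.0128 points without Aged ENR mouse 6 and -0.00883 points without Young STD mouse 1. On autosomes it was 0.126 points, with 6 of 7 Aged ENR mice above all young mice. The 9882 unmethylated autosomal regions had 1.33% to 1.47% in Aged ENR mice, all 7 above all Young STD mice, with a difference of 0.136 points that was 0.123 in series 27 and 0.153 in series 37. The difference was -4.50 points for X-linked CpGs and -10.2 points for imprinted CpGs, and in both cases 3 of the 7 Aged ENR mice were under the lowest young mouse. The X-linked difference was -4.65 points in series 27 and -4.81 in series 37, whereas the imprinted difference was -4.14 and -19.4, and -6.46 without Young STD mouse 4. By region, the 6 imprinted regions with 3 or more such CpGs had a median difference of -16.3 points, 4 lower and 2 higher. Over all CpGs, as deviations from the mean of each CpG, 25 imprinted regions had a median of 0.0533 points, 12 lower and 13 higher. Of 2486 regions 0 were called (0% of all 9650), and 80 had an unadjusted p under 0.05, 46 lower and 34 higher, against 5.34% of all, with a smallest adjusted p of 0.846. This direction turned to 86 higher and 31 lower with the composition index in the model, to 34 and 29 with the replicate block, and to more higher than lower when any 1 Aged ENR mouse other than mouse 6 was left out (46 and 33 without mouse 3). Of single CpGs, 0 of 111693 were called (0% of 522279), 1411 had an unadjusted p under 0.05 (3.95% of all), 1004 were lower by over 25 points (5.21% of all) and 675 higher (2.39% of all).

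The named regions had a wide spread in this comparison. Suv39h1, an X-linked histone methyltransferase gene named after its values were seen, had 32.7%, 34.9%, 31.9%, 43.9% and 35.6% in Young STD mice, 0.752% to 33.8% (median 13.3%) in Aged ENR mice and 1.52% to 46.3% (median 5.64%) in Aged STD mice. Its Aged ENR difference was -21.9 points (SE 5.94, adjusted p 0.846 by limma), and its Aged STD difference was -22.2 points (SE 7.52, adjusted p 0.672 by limma). These rest on 7 of its 33 CpGs, and over all 33 they were -7.84 and -12.7 points. Without Aged STD mice 3, 4 and 6 the Aged STD difference over the 7 CpGs was -13.9 points. For Nhsl2 the Aged ENR difference was -24.5 points (adjusted p 0.846 by limma) over 16 CpGs and -12.4 points over all 36. Zar1 had 5% to 34.4% (median 20.3%) in Aged ENR mice, 15.6 points above Young STD mice with overlap, and 2.68 points above them over all 28 CpGs. Nlgn2/Tmem256, which holds the gene of an inhibitory synapse adhesion protein, was the only one of 1775 regions with 5 or more CpGs measured in every mouse that did not overlap (1 higher and 0 lower), against 0.101% of all 3957 such regions and windows higher and 0.177% lower. It had 0% in all 5 Young STD mice and 0.120% to 3.30% in Aged ENR mice over 7 CpGs, a difference of 1.83 points that was -0.384 points over all 23 CpGs.

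**Figure D5:**
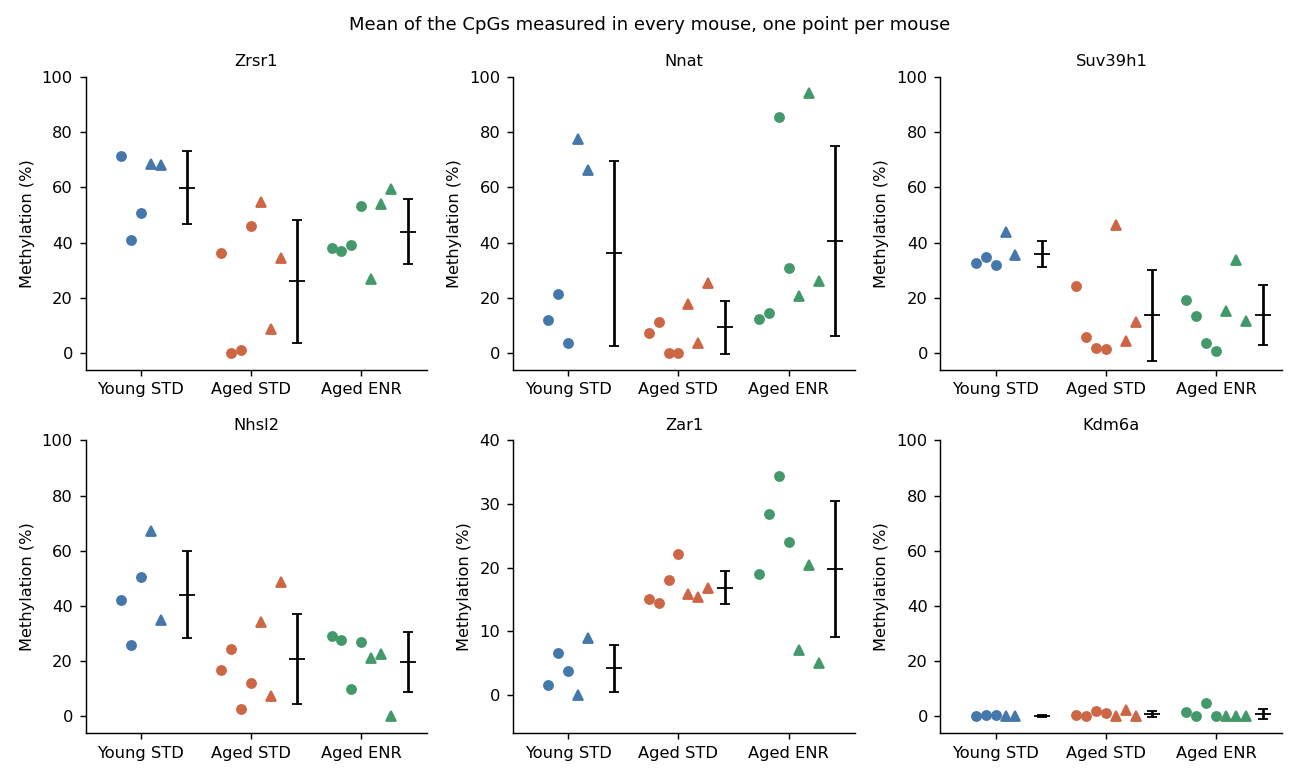
Mean methylation (percent) over the CpGs measured in every mouse for 6 promoter regions, with points for mice, circles for library series 27, triangles for series 37, and bars for means ± SD. Zar1 is drawn on an axis to 40%. Zar1 separates Aged STD from Young STD mice, Zrsr1, Suv39h1 and Nhsl2 spread downward in Aged STD mice, Nnat varies within groups, and Kdm6a stays under 5%.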

How the data were processed

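RRBS was done on the dentate gyrus of 19 mice. The authors deposited, for each mouse, methylation as a percent at single cytosines, and per the study's methods kept cytosines with at least 10 reads and mapped reads to mm10. The submitters' processing notes name Trim Galore 0.4.0, cutadapt 1.8.1, Bismark 0.16.1 and methylKit 1.5.2. The study's methods name other versions of Trim Galore and Bismark. Without read numbers depth is unknown and read-based tests could not be run.

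Cytosines were placed on the mm10 genome and on GENCODE M21 basic (81033 transcripts). Members and gene lists were chosen with earlier results of these data known. Mice were the replicates, numbered in the labels. Region means over CpGs measured in every mouse (3 or more) for promoters, and 1000-base windows for all other CpGs, were fitted in limma 3.58.1 (R 4.3.3) with a variance trend, per comparison, with Benjamini-Hochberg adjustment over the whole table and two-sided tests. Single CpGs were fitted likewise and called at adjusted p under 0.05 with a difference over 25 points. The fits were tested on simulated data. Regions named were, per list, up to 4 with the most CpGs measured in every mouse and 2 or 3 with the highest and lowest young levels, then the non-overlapping regions with the largest differences (up to 5 in each direction), and the 5 with the highest young level and the 5 with the largest SD. Some regions that this rule names are not reported here. Zar1, Suv39h1, Bsg, Nr6a1, Dhps, Abl1, Dhx15 and Hist1h2bh/Hist1h3f were added after their values were seen. No sample column was unmatched (0). Regions with fewer than 3 such CpGs are given over all CpGs with a value. Same-numbered mice are different animals, and their deviations correlated between -0.148 and 0.246, so numbers were not used as pairs. Alternatives were other CpG sets, variance models, scales, covariates and left-out mice.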

Additional observations from a re-analysis of the deposited data

Results flagged for a closer look

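Among 178 groups of 4 to 7 mice (a region or class mean in a group), 35 had a mouse far from the others by Dixon's test, which chance gives in about 1 of 20 groups of normally distributed values. That rate does not hold for groups with most values at 0%.

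Among housekeeping and germline promoters, the highest mouse stood apart at Cltc (Aged ENR mouse 3, 4.41%), at Gapdh (Young STD mouse 1, 6.67%, Aged STD mouse 3, 3.79%, and Aged ENR mouse 1, 7.41%) and at Ribc2/Smc1b (Young STD mouse 4, 5.39%, and Aged STD mouse 1, 4.02%). The lowest mouse stood apart at Tuba3b (Young STD mouse 2, 92.1%, and Aged ENR mouse 4, 94.6%) and at Sohlh2 (Aged ENR mouse 2, 98.2%).

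Among neuronal and developmental genes the mice with high values were Young STD mouse 5 at En1 (5.06%), Aged STD mouse 5 (5.49%) and Aged ENR mouse 3 (9.38%) at Tubb3, Young STD mouse 3 (1.96%) and Aged ENR mouse 4 (5.56%) at C1ql2, and Young STD mouse 2 at Npas4 (27.6%). Aldh1l1 had a low value of 0% in Aged STD mouse 4. The muscle gene Mymx had low values in Young STD mouse 4 (35.0%) and Aged ENR mouse 6 (18.9%).

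On the X chromosome the high values were Aged ENR mouse 3 at Kdm6a (4.90%), Aged STD mouse 2 at Eif2s3x (3.78%), Young STD mouse 2 (8.26%), Aged STD mouse 2 (4.67%) and Aged ENR mouse 7 (5.59%) at Ddx3x, Young STD mouse 4 (16.8%) and Aged ENR mouse 3 (5.02%) at Kdm5c, and Aged STD mouse 4 at Pbdc1 (13.8%). Esx1 had a low value of 5.67% in Aged ENR mouse 4. The remaining high values were Young STD mouse 2 at Dnmt1 (0.752%), Young STD mouse 1 at Dnmt3a (2.73%), Aged STD mouse 2 at Bms1 (5.49%), Aged STD mouse 6 at Nlgn2/Tmem256 (2.63%), Aged STD mouse 1 (1.91%) and Aged ENR mouse 7 (30%) at Bsg, Young STD mouse 4 at Dhx15 (16.7%) and Aged ENR mouse 7 at Hist1h2bh/Hist1h3f (2.81%).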

How the results depend on the processing

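No promoter region was called in any comparison under the alternatives run (21, 23 and 20 for Aged STD against Young STD, Aged ENR against Aged STD and Aged ENR against Young STD), nor with 1 mouse left out (0 to 0 calls). With the replicate block, 0 regions were called in each comparison. The numbers do not pair the mice, and 62, 61 and 63 regions then had an unadjusted p under 0.05. Without the variance trend, limma called 4 promoter CpGs in Aged STD against Young STD mice (120 of all 527601 CpGs tested), 1 in Aged ENR against Aged STD mice (26 of 530262) and 2 in Aged ENR against Young STD mice (92 of 522279), and the cause was not tested. With 1 mouse left out, the mean difference over promoter CpGs ranged from -0.158 to -0.0261 points, from 0.0529 to 0.184 points and from -0.0128 to 0.0670 points in the 3 comparisons. For X-linked CpGs the ranges were -10.3 to -5.61, 1.11 to 5.75 and -5.71 to -3.07 points, and for imprinted CpGs -22.2 to -15.7, 6.64 to 12.0 and -12.9 to -6.46 points. Without the 3 Aged STD mice of low composition index, the mean difference over promoter CpGs was 0.0873 points against Young STD mice and -0.0605 points for Aged ENR against Aged STD mice, so both changed sign. Read numbers were not used, so the precision of single values could be judged only from the difference between strands.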

Other observations

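Some CpGs called only without the variance trend had values in few mice. At Magee1 (chromosome X, position 105120943) 4 Young STD mice averaged 85.1% and 6 Aged STD mice 3.03%. At Ndufb11/Rbm10 (X, 20617332) 3 Young STD mice averaged 43.3%, and 4 Aged STD and 5 Aged ENR mice were at 0%. On autosomes, Gpr153 (4, 152275029) had 100% in 4 Aged STD and 15.5% in 4 Aged ENR mice, and Inpp5f (7, 128688048) had 43.8% in 3 Young STD and 1.19% in 7 Aged ENR mice. These were chosen after their values were seen.

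Other motifs were counted in the same RefSeq promoter sequences. CCAAT occurred in 37.4% of autosomal low, 52.2% of autosomal high and 37.9% of all promoters, counted on both strands. The E-box CACGTG occurred in 10.3%, 8.70% and 7.24%, and the cAMP response element TGACGTCA in 3.36%, 0% and 1.88%. CACGTG and TGACGTCA contain a CpG, so the limit given above for CpG number holds for them too.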
